A study of Mus musculus with 12 samples.

Results

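Messenger RNA of axon guidance ligands and receptors was measured in the hippocampus of juvenile male mice (strain C57BL/6J, 3 weeks old, postnatal day 21), a region needed for memory of places and events. Members were taken by symbol from the platform annotation: the Sema, Plxn, Epha, Ephb, Efna, Efnb, Robo, Slit and Unc5 genes, together with Nrp1, Nrp2, Dcc, Neo1, Ntn1, Ntn4, Ntng1 and Ntng2, with Slitrk genes left out. The rule found 68 genes with 180 probes among the 19057 named genes and 45281 probes of the array. Of these, 50 genes with 98 probes were detected on enough arrays to be tested (6 or more of the 12, each with a detection p-value under 0.05), beside 11401 named genes and 21263 probes tested in all.

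One group of 6 arrays, called ethanol here, came from offspring exposed before birth: the mothers had voluntary access to 10% ethanol between 0.5 and 8.5 days post coitum, and drank it. The other 6 arrays are labelled control. Both groups share strain, sex, age and tissue, and the text on drinking is attached to all 12 samples, so the grouping rests on the titles and the treatment label; what the control dams drank is not given in the labels. Whether the 6 samples of a group are from different litters is not stated, and a p-value here therefore reflects the spread between these samples only, which may be partly technical.

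These genes encode the cues that steer growing axons and the receptors that read them. Semaphorins act through plexins, with neuropilins as co-receptors for most secreted semaphorins; netrin attracts axons through Dcc and repels them through Unc5 receptors; Slits repel axons through Robo receptors; and ephrins signal in both directions with Eph receptors at cell contacts. In the hippocampus these families are known for shaping the mossy fibre, entorhinal and commissural projections, and in the juvenile brain for synapse and spine remodelling.

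Median bead intensities ran from 132.6 to 152.1 over the arrays, 20804 to 21672 probes were detected per array, and 89 to 104 of the 180 member probes were. Of 12 listed genes of hippocampal pyramidal and granule neurons, 10 were on the array and 9 were tested. These 9 had a mean log2 signal between 10.70 and 11.01 on every array. Since only genes that passed the detection filter were averaged, this level does not test the tissue label. The arrays differed in RNA of other cells. Ttr, the transthyretin gene of the choroid plexus, had a log2 signal of 8.33 to 11.00 on 4 arrays (ethanol replicates 1 and 3, control replicates 1 and 4) and of 15.56 to 15.81 on the other 8. The 5 tested erythroid markers averaged 11.92 ± 0.44 in log2 signal over the ethanol arrays and 12.52 ± 0.35 over the control arrays (SD, n = 6 each). The part of the erythroid difference in any member's value was not tested.

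No axon guidance gene differed between ethanol and control arrays at the adjusted threshold. Of the 98 member probes, 0 passed an adjusted p of 0.05 in limma (Benjamini-Hochberg, adjusted over the whole tested table), where the background was 0% of all tested probes. The lowest adjusted p of a member was 1.00 in limma, and that of any probe 0.731. At an unadjusted p under 0.05, 2 of 98 member probes (2.04%) were called, both lower in ethanol and 0 higher. The background at that threshold was 4.81% of all tested probes, of which 2.45% were higher and 2.35% lower, so the share of members called was below it. With the arrays scaled to a common median in place of quantile normalization, 3 member probes (3.06%) were called, against 5.63% of all tested probes. The split over all probes was then 942 higher and 256 lower in place of 522 and 500. On 0 member probes did the 6 ethanol values lie wholly above or below the 6 control values, where the background was 0.202%.

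Differences were small in both directions. Represented by its brightest tested probe, the ethanol minus control difference was above 0 for 24 genes and below 0 for 26, with a median of -0.0029 on the log2 scale, beside 5918 above and 5483 below with a median of 0.0047 over all named genes. The differences ran from -0.34 for Dcc to 0.22 for Slit1, and 33 of 50 genes lay within 0.1 of 0. The 95% limma intervals give the sizes these arrays still allow: for 48 of 50 genes the interval lay within a 1.5-fold change in either direction, and for all 50 within a 2-fold change. Dcc and Sema3b were the exceptions to the narrower bound and were detected on 6 and 8 of the 12 arrays. Since the arrays measured whole tissue, fewer cells of a type and less RNA per cell cannot be told apart in any of these values. An added constant of 16 before the logarithm draws the differences of dim probes towards 0.

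**Figure D1:**
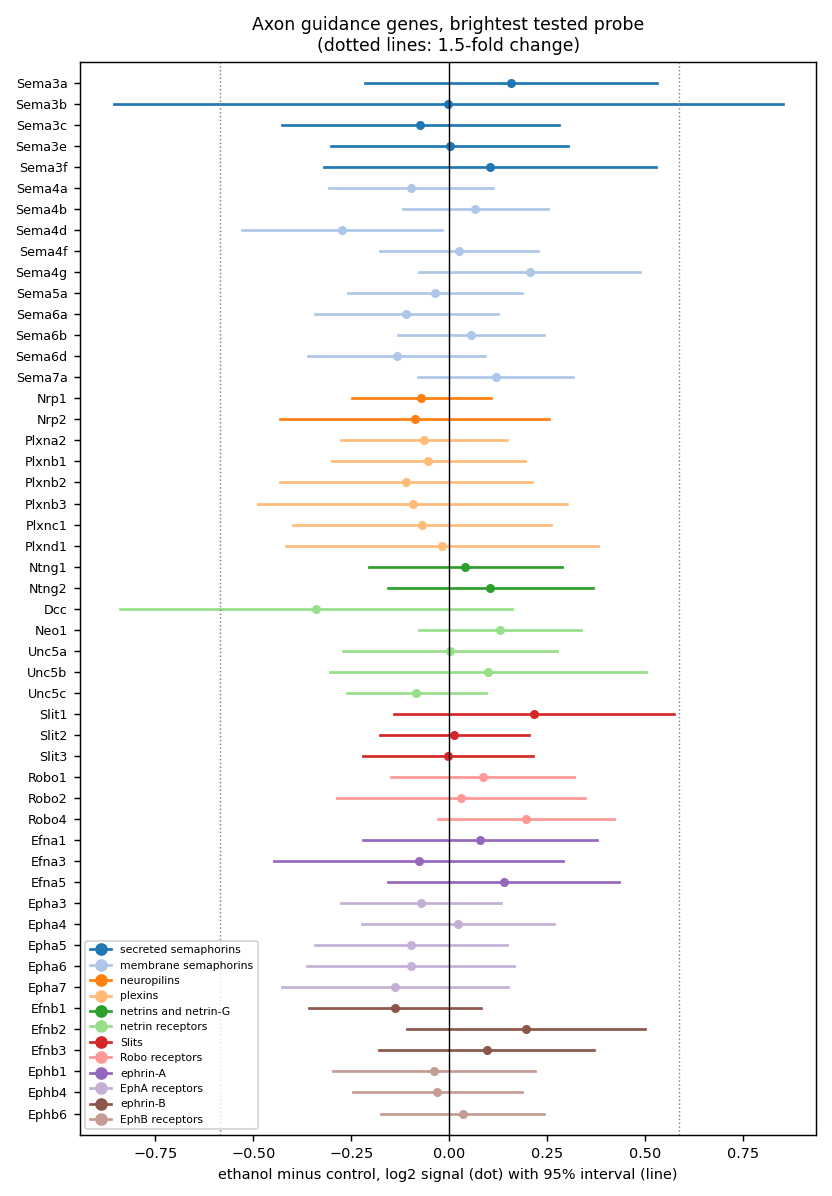
Ethanol minus control difference in log2 signal for the 50 tested axon guidance genes (brightest probe, dot) with its 95% limma interval (line), coloured by role; dotted lines mark a 1.5-fold change. The interval of Sema4d alone leaves out 0, and those of Dcc and Sema3b alone cross a dotted line.

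Among the secreted semaphorins, the ligands of neuropilin and plexin complexes, 5 of 7 genes were tested, 3 with a difference above 0 and 2 below. Sema3a, which repels entorhinal and other cortical axons, read 6.87 at the lowest, 7.18 at the median and 7.94 at the highest of the ethanol arrays. The control arrays read 6.86, 7.02 and 7.57, so that the groups overlapped up to 7.57, with ethanol replicate 3 at 7.94 above every control. The difference was 0.16 (95% interval -0.21 to 0.53). Sema3b is described with the choroid plexus values. Sema3d and Sema3g were detected on 0 arrays.

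The membrane-bound semaphorins, which signal at contacts between cells, had 10 of 12 genes tested, 5 in each direction. Sema4d, the ligand of plexin-B1 that is known from rodent brain as an oligodendrocyte and synapse-inducing semaphorin, had the smallest p of any brightest probe. Its log2 signals in ethanol ran from 5.61 through a median of 5.81 to 5.96, and in control from 5.76 through 6.09 to 6.50. All 6 ethanol arrays lay below the control mean, while the 2 lowest control arrays lay among the ethanol values. The difference was -0.27 (95% interval -0.53 to -0.02), a ratio of ethanol to control of 0.827, with an unadjusted p of 0.0366 and an adjusted p of 1.00 in limma.

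The unadjusted p of Sema4d depended on the setting. It stayed under 0.05 in 13 of the 24 other settings. It passed 0.05 upwards when ethanol replicate 2, 3 or 5 or control replicate 3, 5 or 6 was left out, to at most 0.0883 without control replicate 5, the highest array. It was also 0.0899 on the authors' processed table, 0.0507 with the arrays scaled to a common median and 0.0886 without background correction. It was 0.0274 on beadchip 2 alone against 0.431 on beadchip 1. Sema4g went the other way, with 7.14, 7.54 and 7.95 in ethanol against 7.14, 7.24 and 7.71 in control and a difference of 0.20 (95% interval -0.08 to 0.49). Sema6d, a ligand of plexin-A1, differed by -0.13 (-0.36 to 0.09), and Sema6a, a ligand of plexin-A2 and plexin-A4 in mossy fibre targeting, by -0.11 (-0.34 to 0.12). Sema7a, which is anchored by a lipid and acts through integrins and plexin-C1, differed by 0.12 (-0.08 to 0.32). Sema4c and Sema6c were each detected on 1 array at most.

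The neuropilins and plexins, the receptors of the semaphorins, all had a difference below 0: 2 of 2 tested neuropilins and 6 of 6 tested plexins, of which 0 passed any threshold. The median over the plexins was -0.07, and each interval held 0. Nrp1, the co-receptor of Sema3a, gave 11.60, 11.77 and 11.84 in ethanol against 11.68, 11.75 and 12.02 in control. The groups overlapped between 11.68 and 11.84, with 2 ethanol arrays below every control and 2 control arrays above every ethanol array, and the difference was -0.07 (95% interval -0.25 to 0.11). Nrp2, the co-receptor of Sema3f, differed by -0.09 (-0.43 to 0.25). Plxnd1, a plexin known from endothelial cells, differed by -0.02 (-0.42 to 0.38), and Plxnb3 by -0.09 (-0.49 to 0.30). These signs changed with the settings: without the 4 arrays low in Ttr the Plxnb3 difference was 0.14 and that of Nrp1 was 0.01, and with the arrays scaled to a common median that of Plxnd1 was 0.04. Plxna1 and Plxna3 were detected on 0 arrays and Plxna4, a receptor component for Sema3a and Sema6a, on 1.

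Of the netrin family, Ntng1 and Ntng2, the membrane-anchored netrin-G proteins of axons that bind netrin-G ligands at synapses, differed by 0.04 (-0.20 to 0.29) and 0.10 (-0.16 to 0.37). Ntn4 was detected on 5 arrays, 2 ethanol and 3 control, and was not tested; Ntn1 had no probe named here. Among the netrin receptors Dcc, which mediates attraction to netrin, was detected on 2 ethanol and 4 control arrays. It read 4.94, 5.14 and 5.63 in ethanol and 4.86, 5.59 and 6.53 in control. One array, control replicate 1 at 6.53, stood above all the others, and the remaining values overlapped. The difference of -0.34 (95% interval -0.84 to 0.16, limma adjusted p 1.00) was 0.02 without the 4 arrays low in Ttr, of which that array is 1.

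Neo1, the neogenin receptor of netrins and repulsive guidance molecules, differed by 0.13 (-0.08 to 0.33), and 5 of its 6 ethanol values exceeded the mean of the controls. Unc5c, a repulsive netrin receptor, differed by -0.08 (-0.26 to 0.09). Among brightest probes it had the smallest spread within groups, a pooled SD of 0.13, and Nrp1 had the same value at this precision. Unc5d was detected on 0 arrays, as were Unc50 and Unc5cl, which meet the rule by their symbols but are not netrin receptors.

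All 3 Slits and all 3 Robo receptors on the array were tested. Robo4, the Robo receptor of endothelial cells, read 8.91, 9.05 and 9.29 in ethanol and 8.63, 8.87 and 9.17 in control. Every ethanol array was above the control mean, and 2 control arrays lay among the ethanol values. The difference was 0.20 (95% interval -0.03 to 0.42, unadjusted p 0.0826, limma adjusted p 1.00). Robo1 and Robo2, the neuronal receptors of Slits, differed by 0.09 (-0.15 to 0.32) and 0.03 (-0.29 to 0.35). Slit2 differed by 0.01 (-0.18 to 0.20), and Slit1, detected on 9 arrays, by 0.22 (-0.14 to 0.57).

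The ephrins and Eph receptors comprise 21 members, of which 14 were tested. Of the ephrin-A ligands, Efna5, a repellent of hippocampal and retinal axons, differed by 0.14 (-0.16 to 0.43) and Efna3, which is expressed by astrocytes facing dendritic spines, by -0.08 (-0.45 to 0.29). Efnb2 read 7.08, 7.29 and 7.50 in ethanol and 6.68, 7.02 and 7.57 in control, and 5 of its 6 ethanol values exceeded the mean of the controls, with both the highest and the lowest array in control. Its difference was 0.20 (-0.11 to 0.50). The other ephrin-B ligands, which have a cytoplasmic tail that signals in reverse, went in opposite directions, Efnb1 by -0.14 (-0.36 to 0.08) and Efnb3 by 0.10 (-0.18 to 0.37).

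Epha7 carried the second probe with an unadjusted p under 0.05. Its dimmest tested probe read 6.54, 6.98 and 7.27 in ethanol against 7.17, 7.27 and 7.43 in control. All 6 ethanol arrays were below the control mean, and the groups overlapped between 7.17 and 7.27. The difference was -0.31 (95% interval -0.55 to -0.07, unadjusted p 0.0164, limma adjusted p 1.00), and p stayed under 0.05 in 23 of 24 other settings. These settings refit the same arrays or a part of them, so they are not independent of each other. The exception was beadchip 1 alone. The 3 brighter probes of the same gene gave smaller differences, each with an interval that held 0. From the brightest down these were -0.14 (-0.43 to 0.15), 0.00 (-0.19 to 0.20) and -0.05 (-0.32 to 0.22). The intervals of the first and last of these also held -0.31, and that of the middle probe did not. Epha4, the receptor of astrocytic ephrin-A3 at spines, differed by 0.02 (-0.22 to 0.27), and Ephb1, which guides axons at the optic chiasm, by -0.04 (-0.30 to 0.22). Epha1, Epha2, Epha8, Epha10, Ephb3 and Efna2 were detected on 0 arrays and Efna4 on 1; Ephb2, Robo3 and Sema5b had no probe named here.

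**Figure D2:**
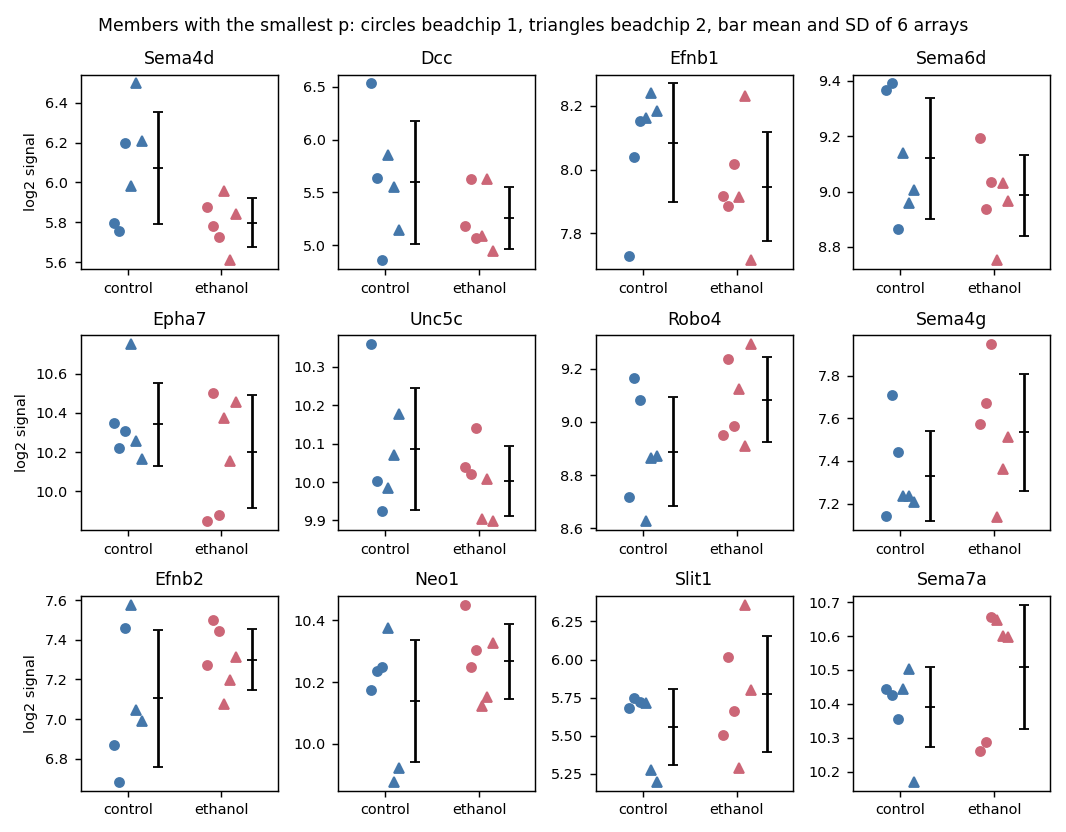
Log2 signal per array (points; circles beadchip 1, triangles beadchip 2) of the 6 members with the smallest p in each direction, brightest probe, with the mean and SD of the 6 arrays of a group beside them. The groups overlap in every panel: Sema4d runs from 5.61 to 5.96 in ethanol and from 5.76 to 6.50 in control.

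The genes that act beside or below these receptors were read from the same fit. Of 48 listed effectors, such as the collapsin response mediators and kinases that turn receptor signals into growth cone movement, 34 were tested. In limma 0 passed the adjusted threshold and 0 had an unadjusted p under 0.05, with 16 differences above 0 and 18 below. The smallest p belonged to Dpysl4, a collapsin response mediator, at 0.19 (95% interval -0.02 to 0.40), and to Vav3, a signalling protein downstream of Eph receptors, at -0.20 (-0.44 to 0.05). Of 42 other guidance cues and receptors, 35 were tested, 0 passed the adjusted threshold and 1 (2.86%) had an unadjusted p under 0.05, where the background over all named genes was 4.49%. This was Rgma, the repulsive guidance molecule that binds neogenin, at 10.07 ± 0.20 over the ethanol and 9.84 ± 0.09 over the control arrays (SD, n = 6 each), and a difference of 0.24 (0.04 to 0.44; unadjusted p 0.0244, limma adjusted p 1.00).

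Members varied unequally between arrays of a group. The pooled within-group SD of the brightest probes had a median of 0.22 on the log2 scale, from 0.13 for Unc5c to 0.80 for Sema3b, with Dcc next at 0.46. The brightest probe of Sema3b was low on the same arrays as Ttr. Its log2 signal was 5.01, 6.37, 5.22, 5.84, 6.85 and 6.44 on ethanol replicates 1 to 6 and 4.88, 6.84, 6.20, 4.87, 6.28 and 6.67 on control replicates 1 to 6. The 4 arrays low in Ttr gave 4.87 to 5.22 and the other 8 gave 5.84 to 6.85, so that the 2 sets of arrays did not overlap, and this probe was detected on 8 arrays. It was the only one of 98 member probes that lay lower on all 4 arrays than on the others, and 0 lay higher. The same count was not made over all tested probes, so whether such a probe is unusual on these arrays is not known. The second tested Sema3b probe overlapped, with 5.05 to 5.79 on the 4 arrays low in Ttr and 5.36 to 6.55 on the other 8. The 9 tested choroid plexus markers averaged 9.27 ± 2.18 over the ethanol arrays and 9.23 ± 2.25 over the control arrays (SD, n = 6 each), and the arrays low in Ttr were 2 of each group. The Sema3b difference between groups was -0.00, with the widest interval of any member, -0.86 to 0.85.

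**Figure D3:**
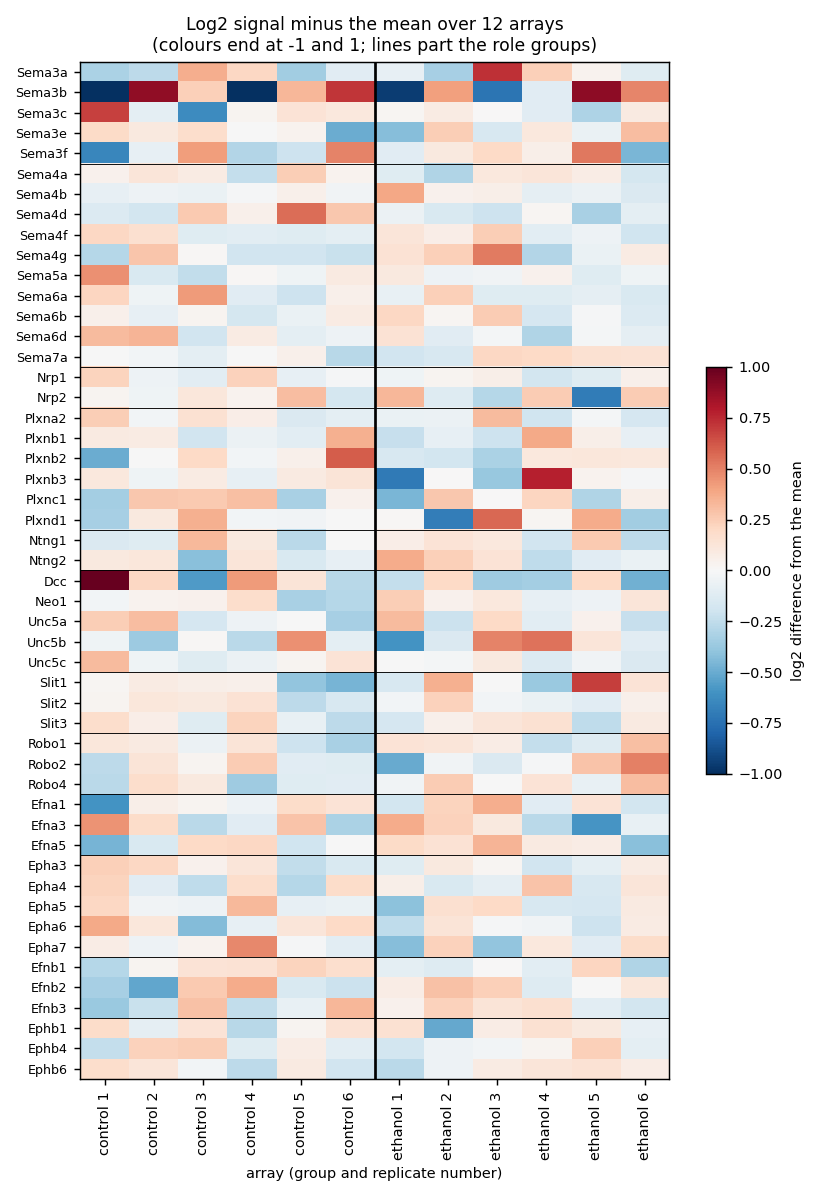
Log2 signal of each tested member (brightest probe) minus its mean over 12 arrays, with control arrays left and ethanol arrays right of the vertical line; colours end at -1 and 1. In no row do the 6 ethanol values lie wholly above or below the 6 control values, and Sema3b is low on control replicates 1 and 4 and ethanol replicates 1 and 3.

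Members known from mouse brain to be enriched in 1 cell type were set against the mean log2 signal of that type's markers, with 6 relations computed. Plxnb3, a plexin of oligodendrocytes, rose with the 11 tested oligodendrocyte markers over the 12 arrays. Its log2 signals were 7.07, 7.78, 7.40, 8.55, 7.81 and 7.76 on ethanol replicates 1 to 6 and 7.88, 7.73, 7.86, 7.70, 7.86 and 7.90 on control replicates 1 to 6. Ethanol replicates 1 and 3 were lowest and ethanol replicate 4 highest, and the marker means on these were 11.80, 11.88 and 12.50.

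Pearson's r between Plxnb3 and the oligodendrocyte list was 0.817 (permutation p 3e-05, adjusted 0.00018) and Spearman's rho 0.895 (permutation p 0.00021, adjusted 0.00126). Without ethanol replicates 1 and 3, the arrays farthest from the median of the markers, r was 0.626 (permutation p adjusted 0.209) and rho 0.818 (adjusted 0.0359), so that without them the linear relation no longer passed the threshold while the rank relation did. Without the 4 arrays low in Ttr, which include both, r was 0.758 (exact permutation p adjusted 0.0378) and rho 0.738 (exact permutation p adjusted 0.275). Within beadchip 1 r was 0.922 (exact permutation p adjusted 0.00833) and within beadchip 2 it was 0.725 (exact permutation p adjusted 0.362). Within the ethanol arrays r was 0.909 and within the control arrays 0.901 (exact permutation p adjusted 0.00833 and 0.0667). The marker list itself averaged 12.16 ± 0.28 over the ethanol arrays and 12.24 ± 0.21 over the control arrays (SD, n = 6 each).

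None of the other 5 relations passed an adjusted permutation p of 0.05 over 12 arrays. Robo4 and the endothelial list gave r of 0.533 and rho of 0.524 (permutation p 0.0760 and 0.0844, adjusted 0.228 and 0.253). Without ethanol replicate 2 r was 0.719 (permutation p adjusted 0.0404) and rho 0.691 (permutation p adjusted 0.0677). This r was the highest with 1 array left out, and the lowest was 0.4335, without control replicate 4. Without the 2 arrays farthest from the median of the markers r was 0.300. Within the ethanol arrays r was 0.047 and within the control arrays 0.883 (exact permutation p adjusted 0.994 and 0.0667). For Plxnd1 and the endothelial list r was 0.403, for Sema6a and Sema4d with the oligodendrocyte list 0.372 and 0.143, and for Ntng1 with the thalamus list 0.210, with adjusted permutation p between 0.357 and 0.662.

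**Figure D4:**
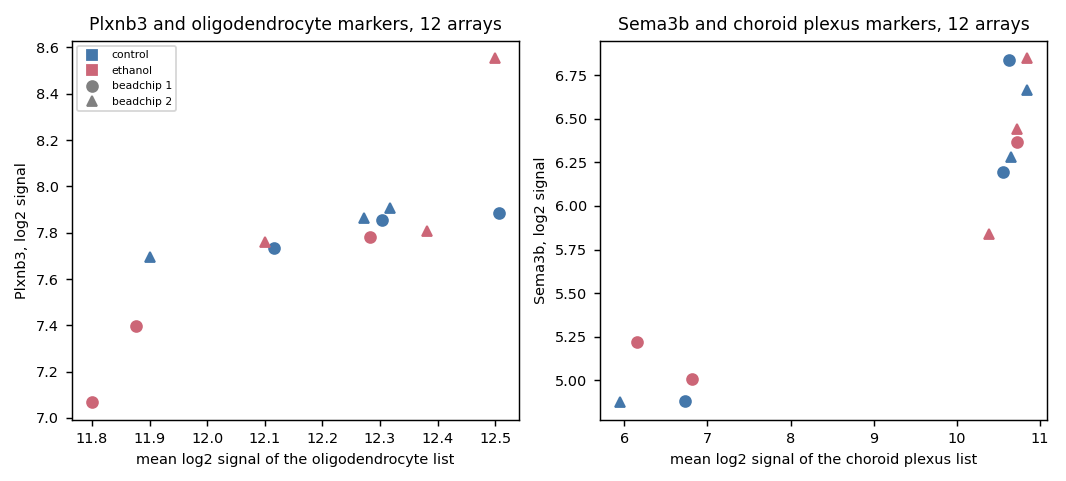
Log2 signal of Plxnb3 against the mean log2 signal of the oligodendrocyte markers (left) and of Sema3b against that of the choroid plexus markers (right), 1 point per array, coloured by group and shaped by beadchip. Plxnb3 is lowest, at 7.07 and 7.40, on the 2 arrays lowest in the markers, and Sema3b forms separate sets, up to 5.22 and from 5.84.

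The promoters of Plxnb3, Plxnd1 and Robo4 are shown because these genes are the glial and vascular receptors of the relations above. Each window runs from 250 bases before to 50 bases after the gene's start, 5′ to 3′ on the gene's strand, from RefSeq on GRCm38.p6: Plxnb3 at chrX:73756853-73757152 (plus strand), Plxnd1 at chr6:115994956-115995255 (minus strand) and Robo4 at chr9:37401722-37402021 (plus strand). Capitals mark ACAAAG, the core letters of SOX factor motifs, which include those of the oligodendrocyte factor Sox10.
Plxnb3: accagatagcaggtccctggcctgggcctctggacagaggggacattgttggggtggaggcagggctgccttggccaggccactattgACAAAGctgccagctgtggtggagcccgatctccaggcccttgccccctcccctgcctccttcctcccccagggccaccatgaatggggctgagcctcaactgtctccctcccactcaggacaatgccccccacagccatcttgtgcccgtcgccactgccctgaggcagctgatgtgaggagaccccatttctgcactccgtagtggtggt
Plxnd1: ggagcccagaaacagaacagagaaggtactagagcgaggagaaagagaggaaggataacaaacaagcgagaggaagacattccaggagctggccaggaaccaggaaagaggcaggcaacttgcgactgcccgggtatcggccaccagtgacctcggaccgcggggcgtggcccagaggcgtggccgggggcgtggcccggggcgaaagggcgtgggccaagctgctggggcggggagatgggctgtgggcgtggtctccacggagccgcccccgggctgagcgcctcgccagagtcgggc
Robo4: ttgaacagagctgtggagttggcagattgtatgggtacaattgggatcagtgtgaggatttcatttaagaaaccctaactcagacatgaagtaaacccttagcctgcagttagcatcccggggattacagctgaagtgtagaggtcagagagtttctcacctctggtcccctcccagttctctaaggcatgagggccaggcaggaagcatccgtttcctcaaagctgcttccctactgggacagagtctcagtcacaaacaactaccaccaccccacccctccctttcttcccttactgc
Plxnb3 held ACAAAG 162 bases before its start, and the other windows held none of the motifs searched. Plxnd1 had a GC content of 67.0% with 23 CpG sites, Plxnb3 63.7% with 4, and Robo4 50.3% with 2.

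Windows were found for 59 of the 68 members, 75 windows in all. They were searched on both strands for ACAAAG, for CCGGAA (a form of the ETS motif) and for TATAAA (the TATA box). Shorter or other forms of these motifs were not searched, so a window without a string may still hold such a form. ACAAAG was in 14.7% of member windows, 18.7% of all 32851 windows and 16.8% of the windows of protein-coding genes. CCGGAA was in 9.33%, 14.9% and 18.7% of these. TATAAA was in 2 member windows, 2.67%, against 13.6% of all windows and 12.6% of those of protein-coding genes. The median GC content was 64.0% in member windows, 52.7% in all windows and 56.3% in those of protein-coding genes. Windows with at least 50% GC and an observed over expected CpG ratio of at least 0.6 made up 57.3% of the member windows and 45.1% of the protein-coding ones. These letters are a description of the windows and locate no bound factor.

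Whether probes of 1 gene varied together was read from genes with more than 1 tested probe, a check added after the data were seen. Where a gene varied little between arrays or a probe was dim, a low r does not show poor measurement. The same check was not run over all genes of the array. For 25 such genes the 2 brightest probes were correlated over the 12 arrays, with a median r of 0.29 and a range from -0.57 (Robo2) to 0.93 (Plxnd1). After adjustment over the 25 pairs, 8 had a permutation p under 0.05: Plxnd1 (0.93), Sema3f (0.90), Sema5a (0.81), Sema3b (0.79), Sema6d (0.73), Ephb1 (0.73), Unc5c (0.69) and Nrp1 (0.67). Without the 2 arrays farthest from the median r was 0.82 for both Plxnd1 and Sema3f, but 0.26 for Sema5a, 0.31 for Ephb1, 0.38 for Sema6d, 0.50 for Nrp1, 0.51 for Unc5c and 0.63 for Sema3b. Within beadchips 1 and 2, r was 0.87 and 0.53 for Sema5a, 0.72 and 0.78 for Ephb1, and 0.75 and 0.32 for Sema6d. The ethanol differences of the 2 probes had the same sign in 9 of 25 genes. For 19 of the 25 genes at least 1 tested probe differed in sign from another.

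**Figure D5:**
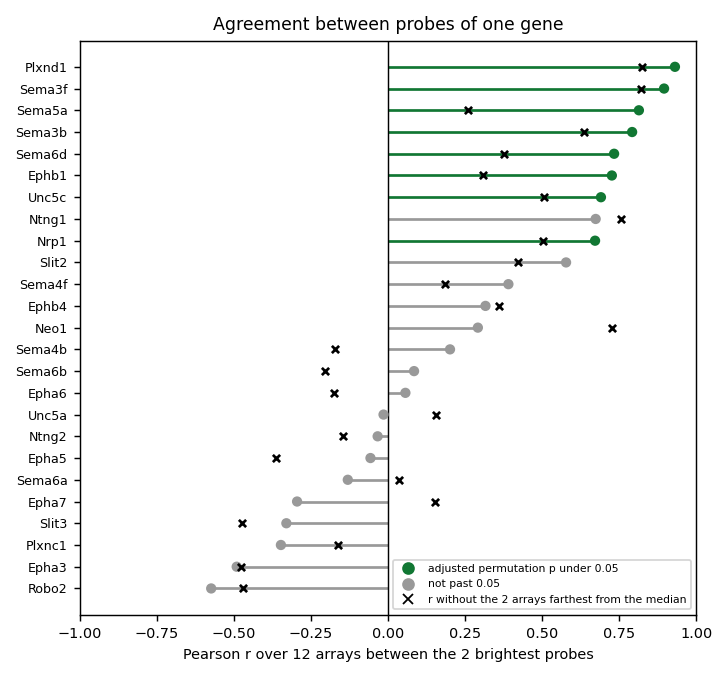
Pearson r over 12 arrays between the 2 brightest tested probes of each of 25 members (dot; green where the adjusted permutation p is under 0.05) and r without the 2 arrays farthest from the median (cross). The values run from -0.57 for Robo2 to 0.93 for Plxnd1, and 16 of 25 lie above 0.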

How the data were processed

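Total RNA of 12 hippocampus samples was labelled with Cy3 and hybridised to Illumina mouse bead arrays, 1 array per sample, 3 of each group on each of 2 beadchips as the titles number them. The submitters' processing notes name GenomeStudio 1.9.0, and its settings are unknown here. The scanner table as deposited holds, per the file headers, a linear bead intensity per probe and array with no background subtracted and no normalization between arrays (judged from the values), and a detection p-value beside each intensity. The authors also deposited a table of processed intensities, whose columns share a column median of 141.6 and served as an alternative. The numbers of arrays and of beads limit the precision.

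In limma 3.58.1 (R 4.3.3, statmod 1.5.0) the intensities underwent normexp background correction through the detection p-values, offset 16, quantile normalization and log2. Quantile normalization removes any shift shared by all probes. Probes detected on at least 6 of 12 arrays were fitted with lmFit and eBayes, ethanol minus control, with Benjamini-Hochberg adjustment over 21263 probes and 95% intervals. Symbols were updated by Entrez number to the GRCm38.p6 gene table. Among tested probes, 18064 had a single gene, 9 carried several and stay unnamed, and 3190 carried none. One probe annotated to both Nrp2 and another symbol was left out. The brightest tested probe represents a gene.

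Relations between members and marker lists used two-sided permutation tests with 100000 resamples, exact below 10 arrays, adjusted over 6 relations. The fit and the relations were tested on simulated data. The alternatives were the authors' table, median scaling, no background correction, an offset of 50, other detection filters, a beadchip term and each beadchip alone, array weights, a replicate block, and arrays left out.

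Members, marker lists and tests were chosen with earlier results of these data known. Named members are up to 6 with the smallest p in each direction, the most variable member of each role, those of the relations, and Dcc, Ntn1, Robo1, Robo2, Slit2, Sema3a, Nrp1, Nrp2, Plxna4, Epha4, Ephb2, Efnb3 and Efna5. Up to 2 genes of each other guidance list could be named. The dimmest Epha7 probe, the probes of the pair check and the outlying arrays were chosen after their values were seen.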

Additional observations from a re-analysis of the deposited data

Results flagged for a closer look

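The gap of an array to the nearest other, as a part of the group's range, was set against Dixon's 95% critical value. Of 58 groups of 6 arrays looked at among the named members, 4 held 1 array above it. For groups chosen without regard to their spread, chance gives about 1 in 20. Some members, among them Epha7 and Ephb1, were named for the largest spread of their role, which an outlying array widens. That rate therefore does not apply to them. Efna5 read 9.75 on ethanol replicate 6, where the nearest other ethanol array read 10.25. Epha7, brightest probe, read 10.75 on control replicate 4, with the nearest control array at 10.35. Ephb1 read 10.62 on ethanol replicate 2, with the nearest at 11.05. Sema6a read 8.08 on ethanol replicate 2, with the nearest at 7.78.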

How the results depend on the processing

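In limma 0 member probes, 0 probes of any gene and 0 genes of the other guidance lists passed an adjusted p of 0.05 under any of the 24 other settings, and the lowest adjusted p of a member was 0.63. Member probes at an unadjusted p under 0.05 numbered 1 on the authors' table and without background correction, 7 of 180 without a filter on detection (2087 of all probes), 5 on beadchip 2 alone, 2 on beadchip 1 alone, and 1 to 5 with 1 array left out. Of all tested probes the shares were 4.64% on the authors' table and 4.63% without background correction (members 1.02% in each). Without a filter on detection the share was 4.61% of all probes (members 3.89%). It was 6.76% on beadchip 2 (members 5.1%) and 3.71% on beadchip 1 (members 2.04%). With 1 array left out 861 to 1219 probes passed, 4.05% to 5.73% (members 1.02% to 5.1%). The replicate block gave 1 member probe and 1078 probes in all, with Sema4d at an unadjusted p of 0.0665 in limma; same-numbered arrays deviated with correlations of 0.33, 0.11, -0.25, -0.20, 0.21 and 0.12, and 1 of 6 correlated best with its own number, so the numbers were not taken to pair the samples. Of 725 values of the 29 named members, 658 kept their direction and 67 turned it, 26 of these with 1 array left out; 0 passed the threshold. The turned differences were: on the authors' processed table, Sema3b 0.0016; with median scaling, Ephb1 0.025, Plxnd1 0.036 and Sema3b 0.030; without background correction, Sema3b 0.0016; on beadchip 1 alone, Efna3 0.11, Epha4 -0.012, Robo2 -0.19, Sema7a -0.0057 and Slit2 -0.023; on beadchip 2 alone, Efna5 -0.086, Efnb2 -0.0083, Efnb3 -0.045, Ephb1 0.093, Ntng1 -0.0045, Ntng2 -0.11, Plxnb3 0.22, Plxnd1 0.034 and Sema3b 0.44; with array weights, Plxnb3 0.023 and Sema3b 0.030; without the 4 arrays low in Ttr, Dcc 0.023, Efnb3 -0.054, Epha7 0.13, Nrp1 0.0052 and Plxnb3 0.14; on the second brightest probe, Epha7 0.0040, Ephb1 0.0092, Ntng1 -0.092, Plxnd1 0.0087, Robo2 -0.023, Sema3b 0.22, Sema6a 0.13 and Slit2 -0.021; on the third, Ephb1 0.037, Neo1 -0.12, Robo2 -0.013, Sema6a 0.14, Slit2 -0.14 and Unc5c 0.18; on the fourth, Robo2 -0.23. With 1 array left out, the values that turned ran for Efna3 from -0.16 to 0.032, Epha4 from -0.033 to 0.069, Ephb1 from -0.098 to 0.059, Nrp2 from -0.16 to 0.041, Ntng1 from -0.0098 to 0.11, Plxnb3 from -0.26 to 0.038, Plxnd1 from -0.14 to 0.12, Robo2 from -0.068 to 0.13, Sema3b from -0.22 to 0.19 and Slit2 from -0.038 to 0.043. One relation passed an adjusted permutation p of 0.05 over 12 arrays by Pearson's r, and 0 did by r without the 2 farthest arrays (where rho of Plxnb3 still passed, adjusted p 0.0359), on beadchip 2 alone or within the control arrays. With 1 array left out, a setting added after the data were seen, 1 to 2 passed and r for Plxnb3 ran from 0.736 to 0.859. The r of Sema4d turned to -0.035 without the 2 farthest arrays, -0.022 on beadchip 2 and -0.0042 within ethanol; that of Ntng1 turned to -0.22 without the 2 farthest, -0.18 on beadchip 2, and ran from -0.0072 to 0.433 with 1 array left out. The causes were not tested. Probes with a detection p-value near 0.05, such as those of Dcc, Slit1 and Sema3b, limit what can be read from low signals.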
